A study of Mus musculus with 22 samples.

Results

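The imprinted growth genes analysed here are 10 genes of the 23081 in the Ribo-Seq tables, taken by symbol from a list drawn up with earlier results of these data known: Igf2, Igf2r, Dlk1, Peg3, Peg10, Cdkn1c, Grb10, Plagl1, Ndn and Mest. RNA-Seq values were joined by Ensembl identifier and were available for 9 of the 10; mRNA of Peg10 was not analysed here, and that gene is described by its ribosome footprints. All samples were cortical neural stem cells (NSCs) cultured from mouse embryos, measured by RNA-Seq of polyA-selected RNA in 14 libraries and by Ribo-Seq, the sequencing of mRNA fragments protected by ribosomes, in 8. The study used these cells to ask how the RNA-binding proteins Musashi-1 and Musashi-2 act on mRNA and its translation.

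The cells fell into tet lines and floxed lines. KH2 cells carry the R26-M2rtTA transactivator and no Msi transgene. MSI1 and MSI2 cells carry, besides rtTA, a doxycycline (Dox)-inducible cDNA of Msi1 or of Msi2 at Col1a1. Tet lines were taken untreated (NoDox) or after 72 h with Dox at 1 µg/ml. C1 and C4 cells carry floxed alleles of Msi1 and Msi2. C4 cells also carry a 4-hydroxytamoxifen (4-OHT)-inducible Cre, and C1 cells lack Cre and controlled for 4-OHT, which was given for 48 h. All of these came from embryos at embryonic day E12.5. Cells at E13.5 were untreated KH2 cells and MSI1 cells with and without Dox. Of the E12.5 lines, all but MSI2 also had Ribo-Seq libraries with and without treatment. Each condition had 1 library, except that untreated E13.5 MSI1 cells had a technical pair, which was summed to leave 13 RNA-Seq conditions. A line therefore stands for 1 culture, tests between lines measure the spread between lines, and intervals for single libraries cover counting error only.

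An imprinted gene is transcribed mainly from the copy inherited from one parent, because the copies carry different DNA methylation from the egg or the sperm. Many imprinted genes act on fetal growth: Igf2 is a paternally expressed growth factor, and Igf2r is the maternally expressed receptor that carries it to lysosomes. In the embryonic brain such genes are used by progenitors, and in cultured pluripotent stem cells their levels are known to vary between lines.

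Total counts were 7889966 to 22248145 reads in the 6 E12.5 libraries of the tet lines, 27973879 to 60791605 in the 3 E13.5 conditions and 45750593 to 58435172 in the 4 libraries of the floxed lines. Ribo-Seq totals were 657288 to 6381242. The share of the reads behind the deposited RPKM that was counted in genes was 14.9% to 15.8% in the E12.5 tet libraries, 28.2% to 32.0% at E13.5 and 32.1% to 34.1% in the floxed lines. The E12.5 tet libraries thus stood apart from the rest, and this difference in library cannot be told apart from the difference between floxed and tet lines or between stages. Levels below are RPKM rescaled with TMM (trimmed mean of M values) factors, which do not depend on that share. The targeted genes went with most labels. Msi1 mRNA was 697.7 in E12.5 MSI1 cells with Dox against 128.4 without, and Msi2 mRNA was 829.6 in MSI2 cells with Dox against 152.9. In C4 cells Msi2 fell from 123.2 to 13.6 with 4-OHT, while Msi1 was 29.5 and 28.2; where the floxed part lies within the counted Msi1 exons was not examined, so Msi1 gives no check of that label. Neural stem markers Fabp7, Sox2, Slc1a3 and Nes were detected in every library, and the summed level of 8 neural stem markers was 8819 to 13623.

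The largest differences among the imprinted growth genes lay between floxed and tet lines and, for Dlk1, between stages. In untreated E12.5 cells, 6 of the 8 genes above a mean level of 1 spanned at least 4-fold over the 5 lines, where 19.1% of 12376 genes did. The median range over those 8 genes was 2.94 on the log2 scale, against 0.98 over all genes, both after adding 0.5 to each level. Among KH2, MSI1 and MSI2 cells alone, no member spanned 4-fold.

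**Figure D1:**
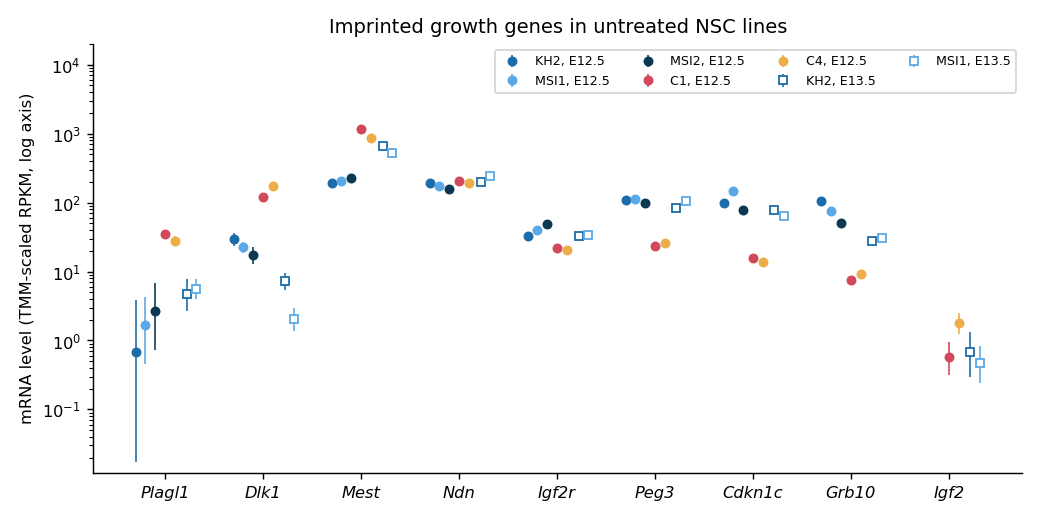
mRNA level (TMM-scaled RPKM, log axis) of 9 imprinted growth genes in untreated cells, with 95% counting intervals; filled circles are E12.5 lines and open squares are E13.5 lines. Plagl1, Dlk1 and Mest were higher in both floxed lines (C1, C4) than in the 3 E12.5 tet lines, Peg3, Cdkn1c, Grb10 and Igf2r were lower, and Ndn stayed between 160.0 and 246.9; Igf2 had no reads in the 3 E12.5 tet lines and no point is drawn.

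Floxed and tet lines were compared with edgeR's quasi-likelihood test (2 floxed against 3 tet lines, untreated, E12.5), in which 66.3% of 12211 genes passed an adjusted p of 0.05, so passing the threshold sets a gene apart little. Of the 8 members tested, 3 were higher, 4 were lower and Ndn did not pass. Plagl1, among the 3, met the count filter of the fit only through the floxed lines. A 4-fold limit on top of the threshold was met by 14.3% of all genes and by 6 members, 3 in each direction. The median log2 difference was -0.38 over the members and 0.00 over all genes.

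Plagl1, a zinc finger transcription factor that slows the cell cycle and is expressed from the paternal copy (ENSMUSG00000019817, chr10:12810497-12851500, plus strand, build NCBIM37), differed most. Its level was 35.4 in C1 and 28.0 in C4 cells, against 0.69 in KH2, 1.69 in MSI1 and 2.64 in MSI2 cells. The lower values rest on 1, 4 and 4 reads, over a counted length of 112 nt, and their order is not resolved. The fitted difference was 4.20 ± 0.43 (log2 ± SE, adjusted p = 0.00025 in edgeR's fit), or 18.4-fold. Plagl1 met the count filter of the fit only because it was high in C1 and C4 cells, so this adjusted p gives no support to the difference. E13.5 cells were in between, at 4.80 in KH2 and 5.65 in MSI1.

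Mest, also called Peg1, a paternally expressed member of the alpha/beta hydrolase family (ENSMUSG00000051855, chr6:30673547-30698457, plus strand), was the most abundant member per length in the floxed lines and at E13.5, and lay near Ndn in the E12.5 tet lines. The ranking rests on a short counted length for Mest, 155 nt against 938 nt for Ndn. Mest was at 1160.3 in C1 and 877.9 in C4 cells, against 190.7 in KH2, 205.9 in MSI1 and 230.9 in MSI2 cells. The tet lines did not differ from one neighbour to the next beyond counting error, whereas C1 lay above C4. The difference was 2.28 ± 0.15 (log2 ± SE, adjusted p = 5.11e-05), or 4.86-fold.

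Dlk1 encodes a transmembrane protein with EGF repeats related to Notch ligands and is expressed from the paternal copy (ENSMUSG00000040856, chr12:110691033-110701546, plus strand). Its level was 172.3 in C4 and 119.4 in C1 cells, then 29.4 in KH2, 22.5 in MSI1 and 17.2 in MSI2 cells. C4 lay above C1 and both above all tet lines, while KH2 and MSI1, and MSI1 and MSI2, did not differ beyond counting error. The difference was 2.66 ± 0.25 (log2 ± SE, adjusted p = 0.00019), or 6.32-fold.

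Grb10, an adaptor that binds the insulin and IGF1 receptors and restrains growth (ENSMUSG00000020176, chr11:11830511-11938686, minus strand), was lowest in the floxed lines. Its level was 7.61 in C1 and 9.10 in C4 cells, against 50.5 in MSI2, 75.8 in MSI1 and 107.2 in KH2 cells. All 5 lines differed from their neighbour in this order beyond counting error, and the tet lines alone spanned 2.12-fold. The floxed lines were 9.35-fold lower (log2 -3.22 ± 0.34 SE, adjusted p = 0.00028).

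Cdkn1c encodes p57, a maternally expressed inhibitor of cyclin-dependent kinases (ENSMUSG00000037664, chr7:150644255-150646955, minus strand). Its level was 13.7 in C4 and 15.9 in C1 cells and 78.4, 97.3 and 148.2 in MSI2, KH2 and MSI1 cells. The floxed lines were 7.32-fold lower (log2 -2.87 ± 0.30 SE, adjusted p = 0.00027).

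Peg3, a large zinc finger protein expressed from the paternal copy (ENSMUSG00000002265, chr7:6656603-6683132, minus strand), was more even within each set of lines. Its level was 23.6 and 26.4 in C1 and C4 cells and 98.8 to 114.3 in the tet lines, with no resolved order inside either set. The floxed lines were 4.30-fold lower (log2 -2.10 ± 0.13 SE, adjusted p = 4.81e-05).

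Igf2r, the receptor that clears IGF2 (ENSMUSG00000023830, chr17:12875272-12962530, minus strand), differed less. It was at 20.9 in C4 and 21.9 in C1 cells and at 32.3, 39.9 and 49.1 in KH2, MSI1 and MSI2 cells, 1.90-fold lower in the floxed lines (log2 -0.92 ± 0.17 SE, adjusted p = 0.0035). This direction depended on the scaling: in deposited RPKM, which is shifted by 1.08 on the log2 scale toward the floxed lines, Igf2r was at 7.21 and 6.70 in C1 and C4 cells and at 5.06 to 7.47 in the tet lines, and the sets overlapped.

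Ndn, the paternally expressed gene of the MAGE family protein necdin (ENSMUSG00000033585, chr7:69493163-69494814, plus strand), had nearly the same level in all lines. It ran from 160.0 in MSI2 to 204.7 in C1 cells, a 1.28-fold range, and KH2 cells at 195.5 lay above C4 cells at 191.3, so the sets overlapped. The difference of 0.16 ± 0.11 (log2 ± SE) did not pass (adjusted p = 0.24).

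Igf2 itself (ENSMUSG00000048583, chr7:149836673-149852721, minus strand) was near the limit of detection. No read was counted in untreated E12.5 KH2, MSI1 or MSI2 cells, where 3 reads would be a level of 0.547, 0.336 and 0.523. C1 cells had 14 reads (level 0.58, 95% counting interval 0.31 to 0.97) and C4 cells 35 (1.81, 1.26 to 2.52). C4 lay above C1 beyond counting error, and Igf2 was too low for the filter of the fit.

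The sequences from which 2 of the most different genes were measured are given because their footprint counts rest on 1 short stretch each. In the Ribo-Seq tables, counting for Plagl1 and Grb10 used a single coding segment, at chr10:12844823-12844974 (plus strand, 152 nt) and chr11:11870426-11870619 (minus strand, 194 nt) of NCBIM37, which are exonic and coding in the annotation. Capitals mark the annotated start codon.
Plagl1: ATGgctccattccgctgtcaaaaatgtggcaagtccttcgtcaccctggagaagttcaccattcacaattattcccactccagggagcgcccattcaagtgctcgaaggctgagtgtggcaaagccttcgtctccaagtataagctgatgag
Grb10: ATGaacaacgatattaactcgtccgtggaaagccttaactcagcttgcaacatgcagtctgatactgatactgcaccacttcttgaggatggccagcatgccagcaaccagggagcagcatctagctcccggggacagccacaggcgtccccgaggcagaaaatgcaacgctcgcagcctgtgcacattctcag

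Promoters of Plagl1 and Mest are shown as the pair of members that were higher in the floxed lines and whose start region holds the hexamer TGCCGC, the core of the sequence bound by ZFP57, a zinc finger protein that maintains methylation at imprinted regions. These are the 250 bases upstream of a RefSeq start in build GRCm38.p6, at chr10:13090582-13090831 and chr6:30737800-30738049, both on the plus strand. Capitals mark TGCCGC or its complement GCGGCA.
Plagl1 promoter: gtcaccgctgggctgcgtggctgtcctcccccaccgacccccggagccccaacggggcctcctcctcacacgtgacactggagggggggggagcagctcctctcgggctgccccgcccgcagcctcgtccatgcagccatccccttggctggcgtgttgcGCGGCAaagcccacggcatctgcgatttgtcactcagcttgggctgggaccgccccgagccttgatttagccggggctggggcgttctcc
Mest promoter: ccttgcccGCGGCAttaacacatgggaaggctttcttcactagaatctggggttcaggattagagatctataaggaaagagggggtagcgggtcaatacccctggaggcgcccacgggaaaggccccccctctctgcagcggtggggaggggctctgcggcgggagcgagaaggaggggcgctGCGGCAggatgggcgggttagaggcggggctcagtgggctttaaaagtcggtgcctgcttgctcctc
The Plagl1 window held 1 match and 19 CpG pairs and the Mest window 2 matches and 14 CpG pairs, while another Mest start, at chr6:30733256-30733505, held no match and 7 CpG pairs. On both strands, 8.68% of 32851 RefSeq promoters of this length held at least 1 match and 0.874% at least 2, with a median of 6 CpG pairs. Listed windows of Dlk1, Peg3, Ndn, Igf2, Grb10 and Igf2r held no match, which says only that these letters are not in those windows. Cdkn1c and Peg10 had no entry. Zfp57 mRNA was lower in both floxed lines, at most 16.4 against 23.5 to 33.5 in the E12.5 tet lines (log2 -1.01 ± 0.19 SE, adjusted p = 0.0032 in edgeR's fit). In untreated E13.5 cells it was at 18.9 in KH2 and 31.5 in MSI1. A link between Zfp57 and the level of Plagl1 or Mest was not tested, and DNA methylation was not measured in these samples.

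Because the E12.5 tet libraries differ from the others in their counted share, the floxed lines were also set against the E13.5 libraries of KH2 and MSI1 cells, an alternative chosen after seeing the data in which stage and line differ together. In that fit (2 against 2) 55.4% of 11828 genes passed, and 7 of the 8 members passed with the same signs as above. Both fits use the same untreated C1 and C4 libraries, so the shared signs are no independent support. The share of all genes that passed both fits with the same sign was not counted. Plagl1 again met the count filter only through the floxed lines. Dlk1 was then 34.8-fold higher in the floxed lines, Plagl1 5.98-fold and Mest 1.74-fold. Cdkn1c was 4.81-fold lower, Peg3 3.78-fold, Grb10 3.52-fold and Igf2r 1.56-fold. Ndn did not pass (log2 -0.17 ± 0.13 SE, adjusted p = 0.31).

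Markers of other cell types moved with the comparison of floxed and E12.5 tet lines, in which 66.3% of 12211 genes passed. Their part in the differences of the imprinted genes was not tested. Of 5 mature glia markers tested, 3 were higher in the floxed lines and 1 lower. Gfap, a filament protein of astrocytes, was at 183.0 and 472.1 in C1 and C4 cells against 0.08 to 5.86 in the tet lines, while the sum of the 5 markers was 697.5 to 1073.5 in the floxed and 578.0 to 1008.6 in the E12.5 tet libraries. Hes5, a Notch target of neural progenitors, was at 25.5 and 21.7 against 524.3 to 803.9. Of 8 neural stem markers, 1 was higher and 4 were lower. Of 4 neuron markers tested, 2 were higher, among them Snap25 (log2 2.56 ± 0.29 SE), and 1 was lower. The sum of 8 mesenchyme and meninges markers was 32.9 to 47.4 in the floxed libraries against 10.2 to 12.2 in the E12.5 and 9.63 to 14.6 in the E13.5 tet libraries, and most of it was Foxc1, at 31.9 and 37.8 in untreated C1 and C4 cells; Foxd1, Lum and Dcn were at or near 0. The endothelial marker Kdr was higher at very low levels, and it needed the floxed lines, where it was high, to meet the count filter of the fit. Sums of choroid plexus, endothelial and microglia markers were at most 1.89, 1.13 and 0.352 in any library.

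Other imprinted genes moved in both directions as well. Of 38 listed genes, 20 were tested, 8 were higher in the floxed lines and 9 lower, 7 of them past 4-fold. Over all genes 66.3% of 12211 passed, and 14.3% did so past 4-fold. The median of the 20 was -0.34 on the log2 scale. Some of these genes sit beside a member. Meg3, the maternally expressed noncoding RNA of the Dlk1 cluster, was at 26.0 and 28.6 in C1 and C4 cells against 1.10 to 5.77 in the tet lines (log2 2.76 ± 0.49 SE, adjusted p = 0.0026), so both partners of that cluster were higher. H19, the maternally expressed noncoding RNA next to Igf2, was at 3.17 and 5.34 against 32.9 to 36.5 (log2 -3.04 ± 0.28 SE, adjusted p = 0.00017). Usp29 and Zim1, beside Peg3, were lower like Peg3 (log2 -2.41 ± 0.32 and -2.20 ± 0.45 SE), at levels of 0.40 to 4.11. Zim1, with 44 and 28 reads in C1 and C4 cells, met the count filter of the fit only through the tet lines, where it was high. Sgce, beside Peg10, was lower (log2 -1.10 ± 0.13 SE), as was Copg2, which overlaps Mest in the opposite orientation (log2 -0.81 ± 0.10 SE). In the Ndn cluster, Snrpn did not pass, Mkrn3 was lower (log2 -0.43 ± 0.12 SE) and Peg12 and Ube3a were higher (log2 1.28 ± 0.15 and 0.66 ± 0.08 SE), as was Atp10a, which lies near Ube3a (log2 2.87 ± 0.11 SE). Rasgrf1, Nnat and Inpp5f were higher by 2.81, 2.29 and 1.73 on the log2 scale. Nnat reached 4816 and 4882 in C1 and C4 cells. Rasgrf1, with 5, 11 and 5 reads in KH2, MSI1 and MSI2 cells, met the count filter only through the floxed lines, where it was high. Its call, like that of Zim1, gives no support to the difference, and both are in the counts of this paragraph.

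**Figure D2:**
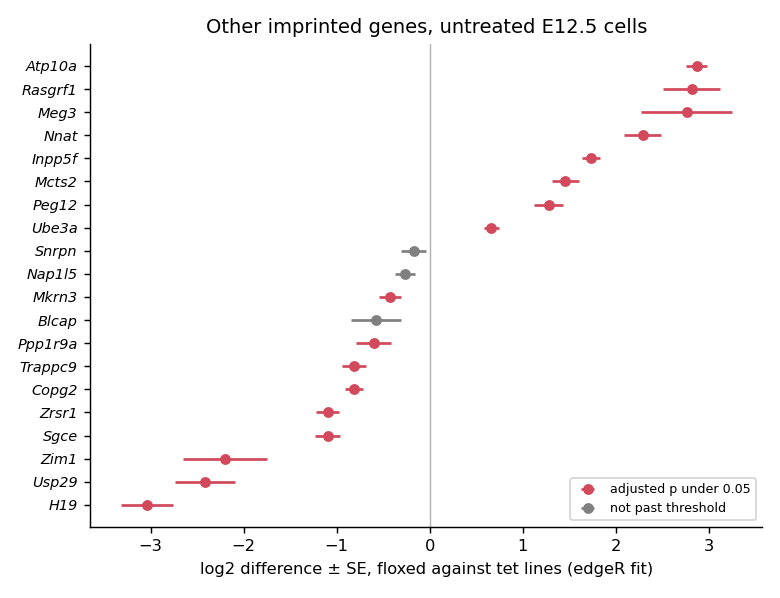
Log2 difference ± SE between untreated floxed and tet lines at E12.5 (edgeR fit) for 20 other imprinted genes; red points passed an adjusted p of 0.05. Atp10a, Rasgrf1, Meg3 and Nnat lie above 2 and H19, Usp29 and Zim1 below -2. Rasgrf1 met the count filter only through the floxed lines and Zim1 only through the tet lines, in each case where the gene was high.

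The genes of IGF signalling and of cell cycle inhibition that work with the members were compared in the same fit, which 66.3% of 12211 genes passed. Of 18 genes of the IGF axis, 14 were tested, 3 were higher and 7 lower. Igfbp6, among the 7, met the count filter of the fit only through the tet lines, where it was high. Igfbp5, an IGF-binding protein, was at 70.0 and 87.0 in C1 and C4 cells against 760.5 to 812.1 (log2 -3.32 ± 0.13 SE), and Igfbp3, another, was at 619.0 and 708.6 against 69.7 to 193.6 (log2 2.53 ± 0.42 SE). Igf1r was lower by 0.58 on the log2 scale. The 5 other CDK inhibitors tested were lower in 4 cases: Cdkn1a, Cdkn1b, Cdkn2c and Cdkn2d fell by 1.70 to 1.92 on the log2 scale. Of 13 imprint maintenance genes, 4 were higher and 5 lower, among them Dnmt1 (log2 0.90 ± 0.11 SE) and Tet2 (log2 -1.63 ± 0.20 SE), and none reached 4-fold.

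Stage was compared next. Untreated KH2 and MSI1 cells at E13.5 were set against those at E12.5 with line as a block (edgeR, 2 against 2). In this fit 50.8% of 11893 genes passed, so passing the threshold sets a gene apart little, and 16.9% passed with at least a 2-fold difference. Of 7 members tested, Mest was higher at E13.5, Dlk1, Grb10 and Cdkn1c were lower, and Igf2r, Ndn and Peg3 did not pass; 3 members passed with at least 2-fold. This comparison shares the untreated E12.5 KH2 and MSI1 libraries with that of floxed and tet lines.

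Dlk1 changed most with stage, from 29.4 to 7.34 in KH2 cells and from 22.5 to 2.05 in MSI1 cells. Both lines fell, by 6.61-fold in the fit (log2 -2.72 ± 0.39 SE, adjusted p = 0.00025), and MSI1 cells fell further (the log2 changes differed by -1.46, 95% counting interval -2.22 to -0.69). The E13.5 values rest on 50 and 30 reads. Grb10 fell from 107.2 to 28.2 and from 75.8 to 30.6, which brought the lines together, a 3.11-fold decrease (log2 -1.64 ± 0.15 SE, adjusted p = 1.11e-05). Mest rose from 190.7 to 660.7 in KH2 cells and from 205.9 to 516.2 in MSI1 cells, 2.88-fold (log2 1.52 ± 0.14 SE, adjusted p = 1.29e-05). Cdkn1c fell from 97.3 to 78.1 in KH2 cells and from 148.2 to 64.8 in MSI1 cells, 1.73-fold (log2 -0.79 ± 0.18 SE, adjusted p = 0.0044), so its decrease was mostly in MSI1 cells. Deposited RPKM is shifted toward E13.5 by 1.03 in KH2 and 0.86 in MSI1 cells on the log2 scale, and in it the change of Cdkn1c in KH2 cells turned to 0.71, that of Peg3 to 0.65 in KH2 and 0.75 in MSI1 cells, and that of Igf2r in MSI1 cells to 0.63. Peg3 went from 108.4 to 83.2 and from 114.3 to 105.4, far above its level in the floxed lines (adjusted p = 0.12 for stage in edgeR's fit). Plagl1 had 1 and 4 reads at E12.5 and 15 and 38 at E13.5, with levels of 4.80 and 5.65, and did not pass the filter of the fit. Igf2 had no read at E12.5 and 8 and 12 reads at E13.5. Past a 2-fold limit with no test, KH2 cells changed in 4 of 8 members and MSI1 cells in 5 of 8, where 18.1% and 17.0% of all genes did. Plagl1, among the 4 in KH2 cells, met the mean level limit of 1 only through the E13.5 library, where it was high.

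Among other genes, H19 fell by 2.54 on the log2 scale with stage and Meg3 fell by 1.15, while Peg12 rose by 1.47 and Zim1 by 0.97. Of 19 other imprinted genes tested, 5 were higher and 8 lower at E13.5, in a fit that 50.8% of 11893 genes passed. Of 14 genes of the IGF axis, 4 were higher and 4 lower, and on the log2 scale Igfbp5 fell by 3.41 and Igfbp3 rose by 1.88. CDK inhibitors were lower in 2 of 5 cases and imprint maintenance genes higher in 5 of 13. Gfap rose with stage as well (log2 3.75 ± 0.19 SE, adjusted p = 1.55e-07), to 60.2 and 93.4 in KH2 and MSI1 cells, and its part in the stage differences was not tested.

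**Figure D3:**
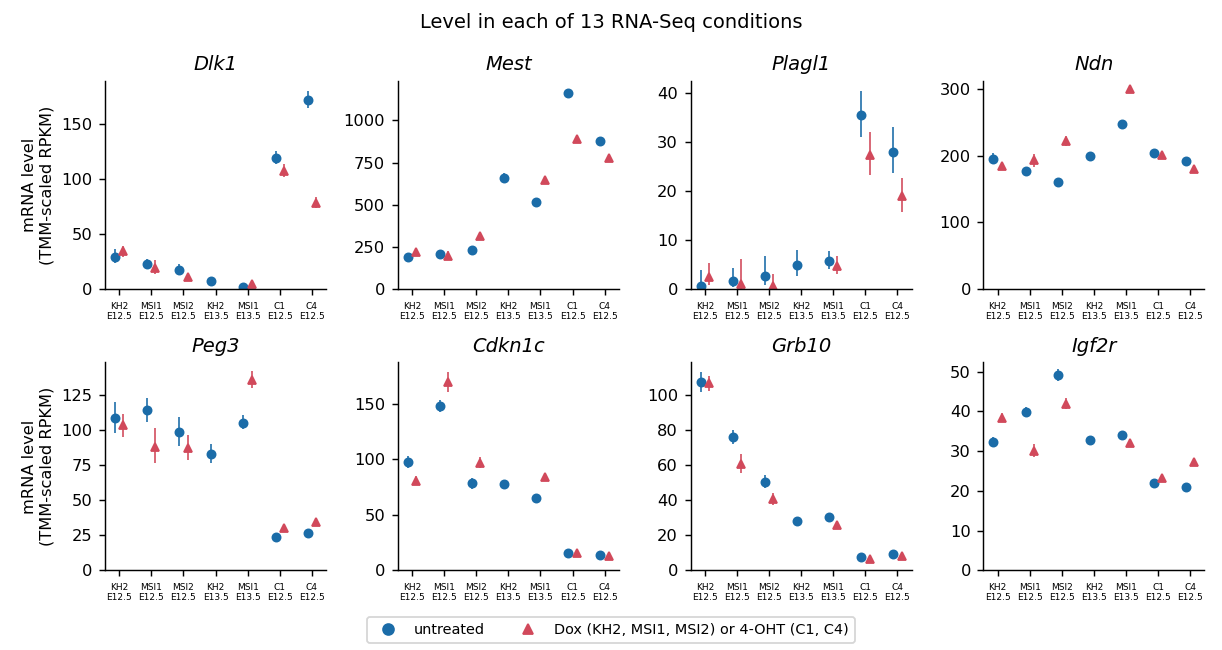
mRNA level (TMM-scaled RPKM, linear axis from 0) of 8 imprinted growth genes in each of the 13 RNA-Seq conditions; circles are untreated and triangles treated cells, and bars are 95% counting intervals. For Peg3, Cdkn1c and Grb10 all 4 floxed libraries lie below all 9 tet conditions, and for Dlk1, Plagl1 and Mest above them. The share of all genes set apart in this way was not counted, and 66.3% of 12211 genes passed the fit of untreated floxed against tet lines. Dlk1 in C4 cells was at 172.3 without and 78.6 with 4-OHT.

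No member passed in the fits of Dox, in which few genes of any kind passed. With both stages of MSI1 cells as repeats (edgeR, stage as a block), 3.60% of 11938 genes passed and none of the 7 members tested did. Their log2 changes ran from -0.27 ± 0.16 (SE) in Grb10 to 0.37 ± 0.35 in Dlk1, with a median of 0.16 against -0.01 for all genes. At an unadjusted p of 0.05 the count was also 0 of 7. With the change of KH2 cells subtracted, no member passed, and the smallest unadjusted p was 0.037, for Cdkn1c (log2 0.57 ± 0.27 SE, adjusted p = 0.99). Over the 3 E12.5 tet lines with line as a block, 0.451% of 11969 genes passed and none of the 7 members did; Grb10, at -0.21 ± 0.09 SE, had the smallest adjusted p of 0.31, and was the only member under an unadjusted p of 0.05. Of the other imprinted genes, H19 and Usp29 fell with Dox in MSI1 cells over both stages (log2 -1.07 ± 0.29 and -1.05 ± 0.27 SE), out of 21 tested. Gfap and the neuron marker Snap25 fell in the same fit (log2 -0.77 ± 0.20 and -1.49 ± 0.38 SE).

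Within single lines, a 2-fold change of mRNA was counted after adding 0.5 to each level, at a mean level of at least 1, with no test. Dox changed 1 of 8 members in KH2 cells (1.17% of all genes), 0 of 8 in MSI1 cells at E12.5 (2.96%), 1 of 8 in MSI2 cells (1.88%) and 0 of 8 in MSI1 cells at E13.5 (1.87%). The member was Plagl1 in both lines, with 1 and 6 reads in KH2 and 4 and 1 reads in MSI2 cells, and both intervals included 0. Plagl1 met the mean level limit only through the library where it was higher, with Dox in KH2 and without Dox in MSI2 cells. These 2 counts therefore cannot be set against the shares of all genes. Dlk1 in E13.5 MSI1 cells, at 2.05 without and 4.33 with Dox on 30 and 53 reads, was just inside the limit once 0.5 was added. Smaller shifts went opposite ways. Igf2r rose from 32.3 to 38.4 with Dox in KH2 cells and fell from 39.9 to 30.1 in MSI1 and from 49.1 to 41.9 in MSI2 cells. Cdkn1c fell from 97.3 to 80.8 in KH2 cells and went from 148.2 to 169.3 in MSI1 and from 78.4 to 96.6 in MSI2 cells. With the KH2 change in the model, neither difference passed in MSI1 cells.

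4-OHT was tested over C1 and C4 cells with line as a block, a fit in which 5.50% of 11626 genes passed. Of 8 members, only Mest passed, by -0.29 ± 0.07 (log2 ± SE, adjusted p = 0.0498), from 1160.3 to 888.1 in C1 and from 877.9 to 777.0 in C4 cells; this call was lost with other size factors, with DESeq2 and without the block. Dlk1 was at -0.65 ± 0.19 SE (adjusted p = 0.095). Peg3, at 0.35 ± 0.14 SE, and Igf2r, at 0.22 ± 0.08 SE, did not pass either (adjusted p = 0.21 and 0.16 in edgeR's fit). Of the lists, the other imprinted gene Inpp5f and the binding protein Igfbp5 fell, while Irs1, Igfbp4, Cdkn2c, Dnmt1, Ezh2 and Uhrf1 rose by 0.28 to 0.69 on the log2 scale. The glia marker Aqp4 fell in the same fit (log2 -0.53 ± 0.10 SE, adjusted p = 0.023).

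Dlk1 was among the members whose change with 4-OHT differed between C4 and C1 cells, each line being 1 culture. In C4 cells, where 4-OHT induces Cre and Msi2 mRNA fell, Dlk1 fell from 172.3 to 78.6, or 2.19-fold (log2 -1.13, 95% counting interval -1.24 to -1.03). In C1 cells, which have no Cre, it went from 119.4 to 107.4 (log2 -0.15, -0.26 to -0.05). The changes differed by -0.98 (95% counting interval -1.13 to -0.83), which covers counting error and not the spread between cultures. Such a difference excluded 0 also for Igf2 (-3.07, -4.43 to -1.72), Igf2r (0.30, 0.23 to 0.37) and Mest (0.21, 0.14 to 0.28). For the remaining members with a value the interval included 0. Markers of other cells moved in the same pair of libraries: the mature glia sum was 1073.5 without and 746.3 with 4-OHT in C4 cells and 764.0 and 697.5 in C1 cells, and the neuron sum was 68.3 and 52.4 in C4 and 61.3 and 59.0 in C1 cells. Their part in the change of Dlk1 was not tested. C4 cells with 4-OHT lay below both C1 libraries and above every tet library. Igf2 was the other member past 2-fold in C4 cells: its reads went from 35 to 11 (level 1.81 to 0.45), and in C1 cells from 14 to 26 (0.58 to 1.22). Thus 2 of 9 members passed 2-fold in C4 cells, where 2.07% of all genes did, and 0 of 8 in C1 cells (0.350%). Igf2 met the mean level limit of 1 in C4 cells only through the untreated library and missed it in C1 cells. The 2 counts therefore cover different members and cannot be set against each other.

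**Figure D4:**
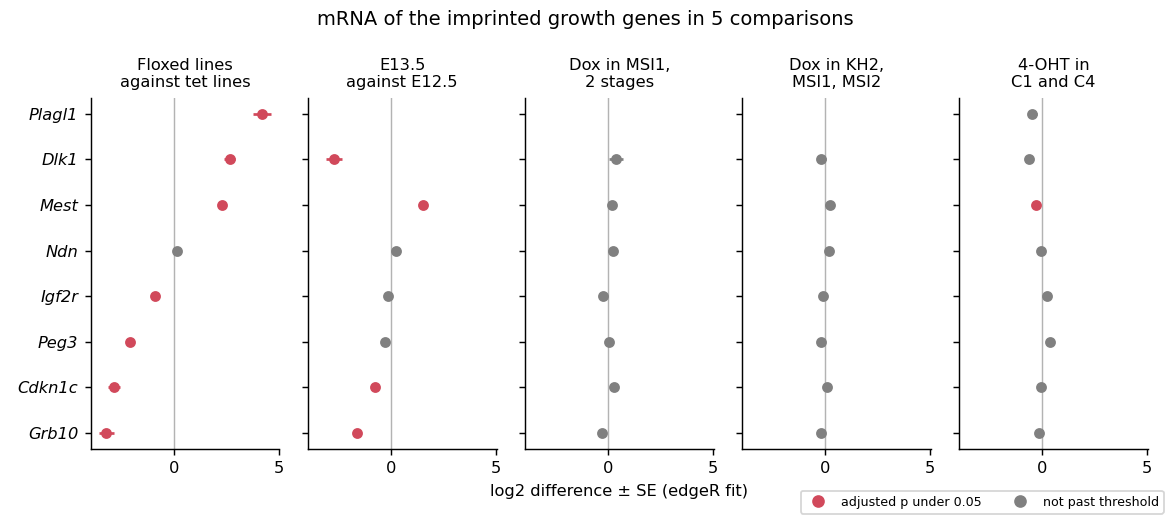
Log2 difference ± SE of the imprinted growth genes in 5 edgeR comparisons; red points passed an adjusted p of 0.05. Members with no point in a panel did not pass the filter on low counts. Differences of over 2 appear between floxed and tet lines and, for Dlk1, between stages, while the Dox and 4-OHT panels stay within 0.7 of 0.

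Ribosome footprints gave a second readout of the line difference, in other libraries of the same lines. Peg10, a retrotransposon-derived, paternally expressed gene that encodes a gag-like protein and a longer frameshift product (ENSMUSG00000092035, chr6:4697306-4710514, plus strand), was counted over 3018 nt and had 178 to 1002 footprints a library. Its footprint level (TMM-scaled RPKM) was 35.9 in C1 and 33.9 in C4 cells untreated, against 99.1 in KH2 and 103.1 in MSI1 cells, a log2 difference of group means of -1.53. All 4 floxed libraries, at 28.5 to 35.9, lay below all 4 tet libraries, at 69.3 to 109.7. The share of all genes whose footprints were set apart in this way was not counted. These levels rest on the TMM factors, which were 0.296 for untreated KH2 cells and 0.809 to 1.45 for the other Ribo-Seq libraries. In deposited RPKM, Peg10 was at 14.9 in untreated C1 cells, above the 7.04 to 10.9 of the tet libraries, while the 3 other floxed libraries, at 3.10 to 4.39, lay below them. With Dox, Peg10 footprints went from 103.1 to 69.3 in MSI1 cells (log2 -0.57, 95% counting interval -0.81 to -0.34) and from 99.1 to 109.7 in KH2 cells (0.15, -0.07 to 0.37); whether its mRNA did so was not analysed here.

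On TMM-scaled levels, most other members differed in footprints in the same direction as in mRNA. How many of all genes did so was not counted, so this does not set the members apart. Mest was at 292.5 and 309.8 in untreated C1 and C4 cells and at 87.6 and 94.6 in KH2 and MSI1 cells. Grb10 was at 11.2 and 13.8 against 85.3 and 70.2, Peg3 at no more than 28.7 against 62.9 and 93.9, and Igf2r at 20.4 and 26.5 against 54.6 and 75.0. In deposited RPKM, Mest was higher and Grb10 lower in both floxed lines as well, but untreated C1 cells lay above both tet lines for Igf2r (8.43 against 5.17 and 7.25) and Peg3 (11.9 against 5.97 and 9.08). Plagl1 had 26 and 2 footprints in untreated C1 and C4 cells and 0 in both tet lines, where 1 footprint in KH2 cells with Dox was the only one. Cdkn1c had 14, 2, 2 and 67 footprints in untreated C1, C4, KH2 and MSI1 cells, so its level in KH2 cells (14.5) was not resolved from the floxed lines (11.3 and 5.69). Dlk1 was at 26.5 and 50.3 in C1 and C4 cells against 21.4 and 25.6 in KH2 and MSI1 cells, and C1 and MSI1 cells had nearly the same level. The log2 difference of group means for Dlk1 was 0.71 in footprints and 2.49 in mRNA of the same lines; this gap was not tested, and 6 to 67 footprints stand behind it. Ndn was at 68.8 to 106.9. No footprint of Igf2 was counted in any of the 8 libraries, which allows a level of up to 2.18 to 23.6.

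**Figure D5:**
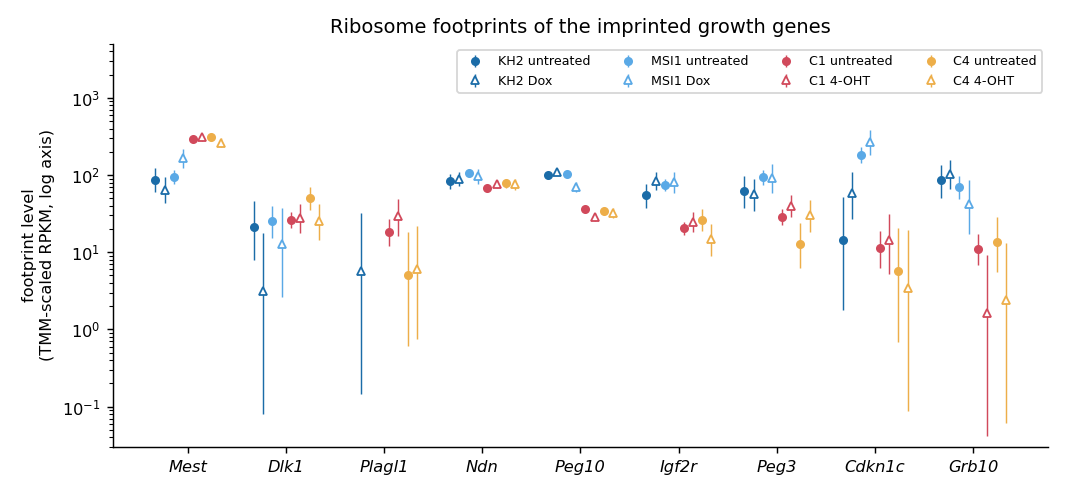
Footprint level (TMM-scaled RPKM, log axis) of 9 imprinted growth genes in the 8 Ribo-Seq libraries with 95% counting intervals; filled circles are untreated and open triangles treated cells. Mest is higher in C1 and C4 than in KH2 and MSI1 cells and Peg10, Igf2r and Grb10 are lower on this scale; Plagl1 in 3 tet libraries, at 0 footprints, has no point.

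Translational efficiency (TE), the footprint level over the mRNA level, was followed with treatment, and a change was counted at 3-fold or more where mRNA changed under 1.5-fold and all 4 libraries had more than 5 reads. No member met this in KH2 (0 of 5 with a value), MSI1 (0 of 6), C1 (0 of 7) or C4 cells (0 of 5), where 1.10%, 1.09%, 2.19% and 2.17% of all genes did. In MSI1 cells with Dox, Mest TE was higher by 0.87 on the log2 scale (95% counting interval 0.35 to 1.38), from 100 to 55 footprints in libraries of unequal depth, and in KH2 cells it was at -0.63 (-1.36 to 0.11). Shifts beyond counting error were also seen in C1 cells, which have no Cre. With 4-OHT, Mest TE was higher there by 0.47 (0.29 to 0.64) and Plagl1 TE by 1.04 (0.05 to 2.02). In C4 cells with 4-OHT, Igf2r TE was at -1.21 (-1.99 to -0.42) and in C1 cells at 0.21 (-0.29 to 0.70). Dlk1 footprints in C4 cells went from 36 to 15, a log2 change of -0.98 beside the -1.13 of its mRNA, and its TE change was 0.16 (-0.72 to 1.03). Ndn, with 81 to 622 footprints, had TE changes of -0.26 to 0.19.

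Musashi proteins bind UAG-containing motifs, and GUAGU and AUAGU were searched on the mRNA strand of the longest annotated 3′ UTR of each member (NCBIM37). Peg3 had the most, with 14 in 3614 nt, followed by Mest, Dlk1 and Grb10 with 3 each; Cdkn1c had none in 677 nt. At least 1 site was in 57.7% of 20007 3′ UTRs of all genes and in 9 of the 10 members, whose 3′ UTRs were mostly longer than the overall median of 891 nt. The densest 25-nt window of Peg3 and windows of Mest and Dlk1, the member with the largest TE shift in MSI1 cells and a member that fell in C4 cells, are shown with the sites in capitals, at chr7:6656637-6656661 (minus strand), chr6:30697340-30697364 (plus) and chr12:110699111-110699135 (plus).
Peg3: uGUAGUuggucuaucuuguaAUAGU
Mest: gggugacacaAUAGUccaccucauc
Dlk1: ucugcaguguGUAGUggcugugugc
The density was 3.87 sites per kilobase in Peg3, 2.33 in Mest and 1.01 in Dlk1, against 1.38 over all 3′ UTRs pooled. Ndn, whose window is not shown, had 3.68, and the remaining members ran from 0 in Cdkn1c to 1.53 in Igf2r. A link between density and change was not tested. A match is a description of these letters and no measure of binding.

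The genes whose pattern over the 13 RNA-Seq conditions was most like each member were found by Pearson's r of log2(level + 0.5) among 12347 genes, as a description with no test. For Dlk1 these were Vasn, March4 and Esco1 (r = 0.97 each), for Peg3 Eif2c1, Abl1 and Dyrk1b (r = 0.99 to 1.00), and for Mest Gtf2e1, Pusl1 and Cdv3 (r = 0.98 each). For Grb10 they were 4930455F23Rik, Nqo1 and Ppp1r1b (r = 0.98 to 0.99), for Cdkn1c Tnfaip2, Dcaf11 and Adrbk2 (r = 0.99 each), and for Plagl1 Msrb3, Dtwd2 and Prkg2 (r = 0.98 each). The conditions share lines and library sets, so that any gene set apart in the floxed lines follows such a pattern. Among the members, Grb10 and Mest ran most nearly opposite (r = -0.94 over 13 conditions) and Cdkn1c and Peg3 most nearly together (r = 0.92).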

How the data were processed

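RNA-Seq counts per gene and RPKM, and Ribo-Seq counts over listed coding exons and RPKM, were used as deposited by the authors. The deposited counts are not normalized, and the deposited RPKM divides a count by a length and by a read number that is constant in a library and larger than its summed counts. The submitters' processing notes name Bowtie, TopHat and build mm9, with no versions. The technical pair (chi-square 1.67 per degree of freedom over 13207 genes) was summed. RPKM was recomputed on TMM-scaled library sizes, and some directions between stages and between floxed and tet lines depend on this scaling. Tests used edgeR (4.0.16) quasi-likelihood fits of counts (genes at 1 CPM or more in 2 or more libraries, Benjamini-Hochberg threshold 0.05), with no 2 biological samples of a condition; they were tested on simulated data. Single-library intervals are exact (95%, counting error only; delta method for TE and for differences of changes), and reads from PCR are not independent molecules. Listed Mest and Igf2r coding segments overlap in part, so those footprint levels are approximate. Strandedness of counting was not given in the sources used here; Copg2 and Mest overlap. All 10 members and the lists of 38 imprinted, IGF axis, CDK inhibitor, imprint maintenance and marker genes were chosen with earlier results of these data known. Named genes were the members, list genes past a threshold or a 4-fold range, and the 3 nearest patterns per member with a 4-fold range. Alternatives were DESeq2 (1.42.0), RLE size factors, no filter, other blocks, other pseudocounts (0.1 and 2), 20 reads for TE, deposited RPKM and leaving out lines. R 4.3.3, Python 3.11.15 and scipy 1.17.1 were used.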

Additional observations from a re-analysis of the deposited data

Results flagged for a closer look

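Changes in opposite directions in different lines, each beyond counting error, set apart the following members; with 1 library per condition these differences were not tested except in MSI1 cells. Igf2 fell in C4 cells with 4-OHT and rose in C1 cells, and the log2 changes differed by -3.07 (95% counting interval -4.43 to -1.72) on 11 to 35 reads a library. Igf2r fell with Dox in MSI1 and in MSI2 cells and rose in KH2 cells, by -0.66 and -0.48 relative to KH2. Cdkn1c went the other way, by 0.46 in MSI1 and 0.57 in MSI2 cells relative to KH2. Ndn rose in MSI1 and in MSI2 cells and fell in KH2 cells, by 0.21 and 0.56 relative to KH2. Both comparisons use the same KH2 libraries. In the edgeR fit of MSI1 cells over both stages with the KH2 change subtracted, the adjusted p was 0.99 for Cdkn1c and 1.00 for Igf2r and Ndn.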

How the results depend on the processing

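The count of members called between floxed and tet lines (7) was 6 to 8 under every alternative run and the stage count (4) was 4 under every alternative; without C1 or C4, Plagl1 was no longer tested, and without the filter Igf2 was called. For Dox over the E12.5 lines the count was 0 to 1 with a line left out, Igf2r being called without KH2 (log2 -0.32, adjusted p = 0.041). For 4-OHT the count of 1 became 0 with DESeq2, 0 with RLE size factors, 0 without the line block and 3 without the filter. The 13 changes past 2-fold within a line were 6 with deposited RPKM, in which some changes under 2-fold also turned sign: with stage Peg3 in KH2 (0.65) and MSI1 (0.75), Cdkn1c in KH2 (0.71) and Igf2r in MSI1 (0.63), with Dox Igf2r in E13.5 MSI1 (0.013), and with 4-OHT Cdkn1c in C1 (-0.0040). Among the refitted member differences 6 changed sign, and none of these was called in the reported fit or in the one that changed its sign. Ndn between floxed and tet lines was -0.17 against the E13.5 tet libraries. For Dox in MSI1 cells, Dlk1 was -0.091 without the stage block and Mest -0.022 with the KH2 change subtracted. For Dox over the E12.5 lines with 1 line left out, Igf2r ran from -0.32 (without KH2) to 0.0020 (without MSI1), Dlk1 from -0.47 (without KH2) to 0.023 (without MSI2) and Cdkn1c from -0.029 (without MSI2) to 0.25 (without KH2). The cause was not tested. Of 240 refitted member differences, 228 kept their direction and their side of the threshold. Over all genes, the count called for Dox in the E12.5 lines went from 54 to 0 without the line block (337 at an unadjusted p under 0.05), to 437 without the filter, and to 24 to 510 with a line left out; for 4-OHT 639 became 0 without the line block (1124 at an unadjusted p under 0.05) and 1254 without the filter; for Dox in MSI1 cells 430 became 104 with DESeq2, 8 with the KH2 change subtracted and 0 without the stage block (58 at an unadjusted p under 0.05). No paired analysis by replicate number was possible because each condition has 1 library; lines and stages served as blocks. Depth limits Igf2, Plagl1 in tet lines and the footprints of Cdkn1c, Plagl1 and Grb10.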
